A study of Mus musculus with 8 samples.

Results

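Orphan nuclear receptors are transcription factors of the nuclear hormone receptor family whose activity is set mainly by their own amount, their phosphorylation and their partner proteins rather than by a circulating hormone. Accessible chromatin was described around 8 of them that act in granulosa cells, which enclose and support the oocyte within its follicle. They are Nr5a1, Nr5a2, Nr4a1, Nr4a2, Nr4a3, Nr2f1, Nr2f2 and Rora, chosen by name from 21631 protein-coding genes. For each gene, the peaks that overlapped its body or the 50 kb on either side were taken, with gene positions from RefSeq on assembly GRCm38.p6. Merged over all 8 libraries, these windows held 145 of the 98245 peak regions of the series.

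The data are ATAC-seq peak lists. In this assay the Tn5 transposase inserts adapters into open chromatin, and a peak is a stretch where insertions pile up. All mice were 21 days old and received 5 IU of eCG, also called PMSG, a gonadotropin that makes follicles grow. At 46 h some were killed, and the others got 5 IU of hCG, a substitute for the ovulatory surge of luteinising hormone (LH), with collection 6 h later. Each library is a pool of 2 to 3 mice. The LH experiment used wild-type F1 mice from CBA x C57BL/6 and set 2 libraries titled hCG against 2 titled PMSG, to ask how accessibility differs after the surge signal. The PR experiment used the strain C.129S7(B6)-Pgrtm1Bwo/OmcJ, with a targeted allele of the progesterone receptor gene Pgr. It compared 2 wild-type (WT) with 2 knockout (KO) libraries, all taken after eCG and hCG per the design text, which asks what accessibility depends on the receptor. The allele is carried in the germline, so the knockout is not limited to granulosa cells. The labels are not coherent on time. For the hCG libraries the source name is peri-ovulatory but the time tag is 0 h, for the PMSG libraries the source name is pre-ovulatory but the tag is 6 h, and for all 4 PR libraries a 6 h tag stands beside a pre-ovulatory source name. Titles were followed, so every direction between hCG and PMSG rests on them.

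Lists held between 55654 and 84313 intervals, with 62327 and 65567 in the hCG libraries, 57992 and 58780 in the PMSG libraries, 80137 and 84313 in the WT libraries and 55654 and 58851 in the KO libraries. The median interval was 488 and 502 bp wide in the hCG libraries against 412 and 422 bp in the PMSG libraries. The files hold no read numbers, so the depth behind a peak is unknown. Pgr itself gave 1 unbroken interval at its lower-coordinate end in the 6 Pgr-intact libraries, and 2 intervals with a gap of 272 bp in KO 1 and 394 bp in KO 2. Cell type markers were read for a peak at the start site. For Amh, Nr5a1, Cyp17a1, Pecam1, Cdh5, Spi1, Adgre1, Col1a1, Dcn and Gdf9 the gene ends were used instead. Between 5 and 7 of 7 granulosa markers had such a peak. Foxl2, Fshr, Amh, Cyp19a1 and Nr5a1, itself a member here, had it in all 8 libraries, Amhr2 in 7 and Inha in 2. Of 4 theca markers between 1 and 3 were marked, with Hhip in 8 libraries, Ptch1 in 6, Cyp17a1 in 2 and Insl3 in none. Endothelial markers gave 2 of 4 in every library (Cdh5 and Kdr), leukocyte markers between 1 and 2 of 4 (Spi1 in 8 libraries, Ptprc and Adgre1 in none), stromal markers between 0 and 1 of 4 (Tcf21 in 6 libraries, Col1a1, Pdgfra and Dcn in none) and oocyte markers 1 of 4 (Gdf9). A peak at a start or gene end shows open chromatin, not expression. Markers that differed with hCG were Cd68, marked in both hCG libraries alone, and Tcf21 and Ptch1, unmarked in both PMSG libraries alone, and their part in the results below was not tested. In pooled cells, a site open in fewer cells and a site less open in each cell cannot be told apart.

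The members fall into 4 classes by role. Nr5a1 (steroidogenic factor 1) and Nr5a2 (liver receptor homologue 1) bind an extended AGGTCA element as monomers and turn on genes of steroid synthesis. Nr5a1 sets up the gonadal programme, and Nr5a2 is needed in granulosa cells for ovulation and luteinisation. Nr4a1 (Nur77), Nr4a2 (Nurr1) and Nr4a3 (NOR-1) are immediate early genes that LH and cyclic AMP switch on within a short time of stimulation. Nr2f1 and Nr2f2 (the COUP transcription factors) bind direct repeats of the same element, mostly repress, and Nr2f2 is best known in the ovary from theca and stromal cells. Rora (RORα) is a constitutive activator known from the circadian clock and from lipid metabolism, and it spans by far the longest gene of the 8.

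RefSeq start sites on GRCm38.p6 were available for 7 of the 8 members, 9 sites in all; Nr5a1 had no entry. A peak overlapped the window from 250 bases before to 50 after the start in all 8 libraries at 5 sites, those of Nr4a1, Nr4a2, Nr4a3 and Rora and the upstream site of Nr2f1. The other 4, both sites of Nr5a2, the site of Nr2f2 and the downstream site of Nr2f1, had no such peak in any library. The nearest peak lay 396 to 493 bp from the downstream start of Nr5a2 and 7214 to 7311 bp from its upstream start. It lay 1167 to 4567 bp from the start of Nr2f2 and 1411 to 2540 bp from the downstream start of Nr2f1. A miss in this window thus does not show that chromatin near a gene's start was closed. The start base itself was covered in all 8 libraries at Nr4a1, Nr4a2 and Rora, in 6 at Nr4a3 and in 4 at the upstream site of Nr2f1. The 250 bases before the start are given 5′ to 3′ on the gene's strand for the NR4A genes, because those of all 3 repeat the same short element, and for the upstream start of Nr5a2 as a site without a peak. Capitals mark TGACG or its reverse complement CGTCA, the core of the cyclic AMP response element, in the NR4A genes, and AGGTCA, the nuclear receptor element, in Nr5a2. The stretches are chr15:101266596-101266845 on the plus strand for Nr4a1, chr2:57124004-57124253 on the minus strand for Nr4a2, chr4:48045055-48045304 on the plus strand for Nr4a3 and chr1:136960449-136960698 on the minus strand for Nr5a2.
Nr4a1: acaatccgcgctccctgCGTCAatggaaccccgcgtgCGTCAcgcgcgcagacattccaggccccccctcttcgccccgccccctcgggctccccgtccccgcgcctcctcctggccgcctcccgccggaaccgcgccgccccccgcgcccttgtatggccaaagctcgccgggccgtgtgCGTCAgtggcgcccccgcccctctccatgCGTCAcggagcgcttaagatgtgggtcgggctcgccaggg
Nr4a2: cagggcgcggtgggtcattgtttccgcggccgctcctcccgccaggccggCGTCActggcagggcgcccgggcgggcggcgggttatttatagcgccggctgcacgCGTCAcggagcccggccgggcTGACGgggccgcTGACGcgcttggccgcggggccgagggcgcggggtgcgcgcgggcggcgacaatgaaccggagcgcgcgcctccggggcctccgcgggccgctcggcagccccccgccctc
Nr4a3: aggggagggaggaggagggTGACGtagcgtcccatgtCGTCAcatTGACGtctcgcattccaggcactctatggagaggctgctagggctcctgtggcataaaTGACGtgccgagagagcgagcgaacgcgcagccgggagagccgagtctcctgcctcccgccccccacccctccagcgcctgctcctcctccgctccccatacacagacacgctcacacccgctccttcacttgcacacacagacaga
Nr5a2: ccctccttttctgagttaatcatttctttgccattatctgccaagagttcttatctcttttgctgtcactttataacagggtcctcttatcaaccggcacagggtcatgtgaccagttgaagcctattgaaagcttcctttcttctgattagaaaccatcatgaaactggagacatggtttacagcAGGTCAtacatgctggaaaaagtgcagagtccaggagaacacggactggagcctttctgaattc

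TGACG, searched on both strands, occurred 4 times in each of the 3 NR4A stretches and not at all in the 250 bases before the 6 other start sites of the members. Of 32851 RefSeq start sites, 17.8% had it at least 1 time in the same length and 45 (0.137%) had it at least 4 times, a threshold set after the NR4A counts were seen. In Nr4a1 all 4 copies lay on the minus strand, the closest to the start beginning at position -40. In Nr4a2 the closest began at -111 and in Nr4a3 at -147. No full palindrome TGACGTCA was found in any of the 9 stretches, against 1.55% of all start sites with one. The GC box GGGCGG, held by 32.7% of start sites, was found 3 times in Nr4a1, 4 times in Nr4a2 and 1 time each in Nr4a3 and at the upstream site of Nr2f1. Base composition also differed between sites with and without a peak. The 5 stretches with a peak ran from 61.2% GC in Rora to 80.0% in Nr4a2, and the 4 without from 39.6% at the downstream site of Nr2f1 to 50% in Nr2f2. The upstream start of Nr5a2 held AGGTCA 1 time (14.0% of start sites), the GATA element AGATAA 2 times (9.99%), and AGAACA, which progesterone receptor sites contain, 1 time (16.1%), with no overlap between them. These matches are letters in a window and were not tested for binding.

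The extent of the peak at those 5 sites varied between libraries. At Nr4a3 the PMSG peaks ended 107 and 88 bp short of the start base, which both hCG and all 4 PR libraries covered. At Nr4a3 the region over the start was covered by 987 and 1018 bp of peaks in the hCG libraries and by 442 and 450 bp in the PMSG libraries. The groups did not overlap, and the WT (1043 and 946 bp) and KO libraries (994 and 953 bp) resembled the hCG libraries. The Nr4a3 peak had a low fold over the caller's background in each LH list, with a percentile rank (100 is the best peak of the list) of 4.06 and 2.26 in the hCG libraries and 0.831 and 0.373 in the PMSG libraries. At Nr4a1 the covered lengths were 1028 and 1063 bp after hCG and 955 and 1043 bp in PMSG, which overlap. The Nr4a1 start ranked at 66.1 and 69.8 in the hCG lists and 92.1 and 80.7 in the PMSG lists. At Nr4a2 the peak spanned 1211 and 1230 bp after hCG and 1018 and 1129 bp in PMSG, and its rank was between 89.4 and 93.6 in the 4 LH lists. In the PR experiment the Nr4a2 start ranked at 90.6 and 90.3 in WT and at 73.9 and 70.5 in KO, with widths of 1210, 1126, 1161 and 1161 bp. Lists of different length give ranks that do not show a change by themselves.

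At Nr2f1 the start base of the upstream site was covered in both hCG libraries, PMSG 1 and KO 1, and lay between 90 and 116 bp outside the nearest peak in the other 4. The region over this site had a covered length of 1275 and 1423 bp after hCG and 833 and 618 bp in PMSG, without overlap. In the PR experiment it was 1103 and 1097 bp in WT and 1573 and 1016 bp in KO, with KO 1 alone high. At Rora the values were 994 and 1003 bp after hCG, 858 and 972 bp in PMSG, 1087 and 1049 bp in WT and 1125 and 973 bp in KO. Nr5a1 was read at its higher-coordinate gene end, where the region chr2:38711752-38714801 was covered by 2774 and 2801 bp after hCG and 2487 and 2554 bp in PMSG. The same place was covered by 3090 and 3068 bp in WT and 3063 and 2861 bp in KO, so it was the longest of these regions in every library. Its fold was modest, between the 4.17 and 14.1 percentile of the LH lists. Of all regions held by all 4 LH libraries, 64.2% were wider in both hCG than in both PMSG libraries, so a wider peak after hCG is the common case.

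**Figure D1:**
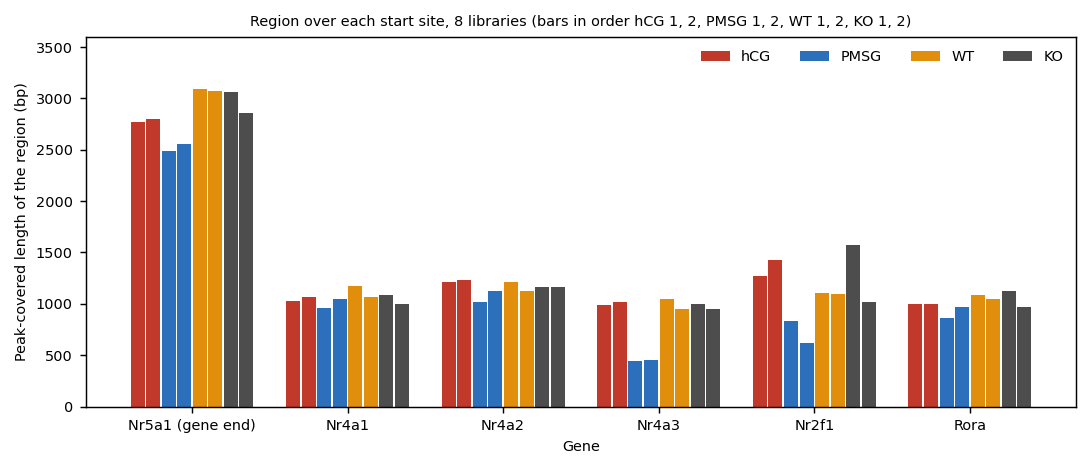
Bars give the peak-covered length in bp of the merged region over each start site (for Nr5a1, over its higher-coordinate gene end) in each of the 8 libraries. Nr4a3 stands at 442 and 450 bp in the PMSG libraries against 946 to 1043 bp in the other 6, and Nr5a1 lies between 2487 and 3090 bp in all 8.

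The LH experiment was then compared by presence. Intervals of its 4 libraries that shared at least 1 bp were merged into regions, and hCG-only or PMSG-only regions were those present in both replicates of the named group and in no replicate of the other. The members' windows contained 119 regions. All 4 libraries had a peak in 67 of them (56.3%), against 49.9% of all regions of the experiment. There were 14 hCG-only regions (11.8%), against 17.7% of all regions, and 13 PMSG-only regions (10.9%), against 10.4%. The PMSG-only share thus sat at the background and the hCG-only share below it. With each list cut to the same number of best peaks by fold, 11 of 113 regions (9.73%) were hCG-only and 22 (19.5%) PMSG-only, where all regions gave 15.3% and 13.3%. Cut to the same number by q-value, a choice made after the data were seen, 13 of 114 (11.4%) were hCG-only and 14 (12.3%) PMSG-only, where all regions gave 15.6% and 13.4%. The balance between the directions around these genes therefore depended on how peaks were ranked.

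By gene, Rora held 8 hCG-only and 5 PMSG-only of its 34 regions, Nr5a2 3 and 5 of 24, Nr4a1 2 and 2 of 21, Nr5a1 1 and 0 of 13, and Nr4a3 0 and 1 of 5. Nr4a2 (4 regions), Nr2f1 (7) and Nr2f2 (11) held none of either kind. With the same number of peaks by fold, the hCG-only and PMSG-only counts were 8 and 6 of 33 for Rora, 1 and 4 of 21 for Nr5a2, 1 and 4 of 20 for Nr4a1, 1 and 4 of 14 for Nr5a1, 0 and 2 of 7 for Nr2f1 and 0 and 1 for Nr2f2. Among the 20000 best peaks of each library the counts were 1 and 3 of 13 for Rora and 3 and 0 of 4 for Nr5a2. Leaving out 1 library asks fewer libraries to meet the rule. Without PMSG 1, Nr5a2 held 6 and 6 of 24, and without PMSG 2, Nr2f2 held 2 and 0 of 10. All 4 regions of Nr4a2 were present in all 8 libraries. With all peaks, no group-only region covered a start site. The nearest to a listed start was 15.9 kb away for hCG-only, 14.7 kb for PMSG-only and 14.0 kb for WT-only regions. Nr5a1 has no listed start, and its hCG-only region lay 6.14 kb from the lower-coordinate and 15.75 kb from the higher-coordinate gene end. Lists cut to one length by fold gave group-only regions at or nearer to a start. The region over the gene end of Nr5a1 was then PMSG-only in the LH experiment and KO-only in the PR experiment, that over the Nr4a3 start, chr4:48044544-48045607, was KO-only, and a Rora region 1.38 kb from its start, chr9:68654754-68655579, was PMSG-only. Regions of Nr2f1 at -2.95 and -4.86 kb also became PMSG-only, and the PR region at -2.92 kb KO-only. In the lists as deposited, these 7 regions had a peak in all 4 libraries of their experiment. None of these 7 calls was made when the lists were cut by q-value, where the nearest to a start was a KO-only region of Nr2f2 at 1.46 kb. With all peaks, of the 14 hCG-only regions 11 lay in gene bodies, and of the 13 PMSG-only regions 8, where 64 of all 119 member regions did. All 13 group-only regions of Rora are among those in gene bodies. The hCG-only regions ranked near the middle of their lists (median percentile 43.3, against 40.5 for regions held by all 4 LH libraries), while PMSG-only regions ranked lower (13.9).

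**Figure D2:**
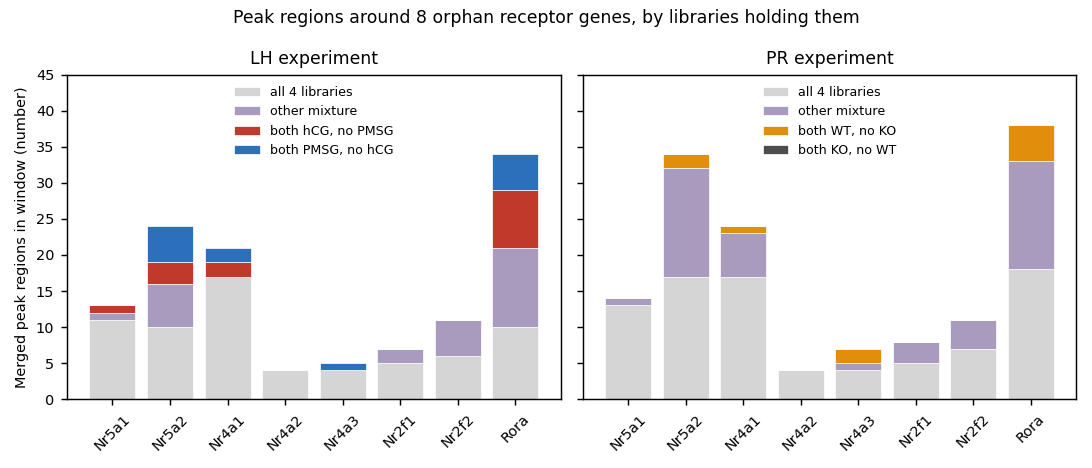
Stacked bars give the number of merged peak regions in each gene's window (body and 50 kb either side) by the libraries that held them, for the LH experiment on the left and the PR experiment on the right. With all peaks, Rora and Nr5a2 carry most group-only regions, Nr4a2, Nr2f1 and Nr2f2 none, and no gene has a region held by both KO and no WT library.

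Nr5a1 showed the best-ranked hCG-only region among the members. It lay at chr2:38698421-38699163 in the gene body, 6.14 kb from the lower-coordinate end, with a peak of 690 bp in hCG 1 and 743 bp in hCG 2 and none in either PMSG library. Its fold was 13.2 and 13.3, at the 85.5 and 84.9 percentile. All 4 PR libraries held a peak there, of 729 and 853 bp in WT and 802 and 579 bp in KO. Of the flanking regions of Nr5a1, 4 were held by all 4 LH libraries and at least 2-fold narrower in PMSG, while others, such as chr2:38658248-38658806 (518 and 423 bp after hCG, 507 and 505 bp in PMSG), were not. The region at chr2:38678713-38679295 was 582 and 581 bp wide after hCG and 197 and 199 bp in PMSG, and the one at chr2:38689593-38690497 791 and 873 bp against 350 and 343 bp. On the other side of the gene, chr2:38717468-38717993 measured 526 and 502 bp against 148 and 150 bp. The fourth, chr2:38730460-38731043, lies inside the neighbouring orphan receptor gene Nr6a1 and measured 493 and 579 bp against 155 and 198 bp. A gene-body region differed the other way: chr2:38704334-38705354 was 568 and 588 bp wide in PMSG, 434 bp in hCG 2 and absent from hCG 1. In all, 4 of the 11 Nr5a1 regions held by all 4 LH libraries were at least 2-fold wider in both hCG libraries, where all such regions of the series gave 5.54%.

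Nr5a2 held group-only regions of both kinds, in its body and in its flanks. Its best-ranked hCG-only region, chr1:136832724-136833129, lay 9.64 kb beyond the lower-coordinate end, with peaks of 331 and 403 bp at the 80.6 and 86.1 percentile, and WT 1, WT 2 and KO 1 held it too. A region just under the presence limit lay upstream, at chr1:136980237-136980692, -20.0 kb from the upstream start. It was 456 and 442 bp wide in the hCG libraries, at the 99.5 and 96.1 percentile, against 139 bp in PMSG 1 and no peak in PMSG 2, and all 4 PR libraries held it. In the other direction, chr1:136793897-136794112 had peaks of 216 and 197 bp in the PMSG libraries at the 55.1 and 61.6 percentile, and chr1:136993536-136993789 peaks of 225 and 222 bp at the 44.1 and 43.7 percentile. Both of these PMSG-only regions were present in both WT libraries and in neither KO library. A stretch of the gene body nearer the start held 3 further PMSG-only regions of low rank, the best at chr1:136933911-136934480 with 555 and 563 bp at the 3.81 and 2.57 percentile. The broad region chr1:136825453-136826505, held by all 4 libraries, measured 1005 and 1053 bp after hCG and 223 and 151 bp in PMSG.

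**Figure D3:**
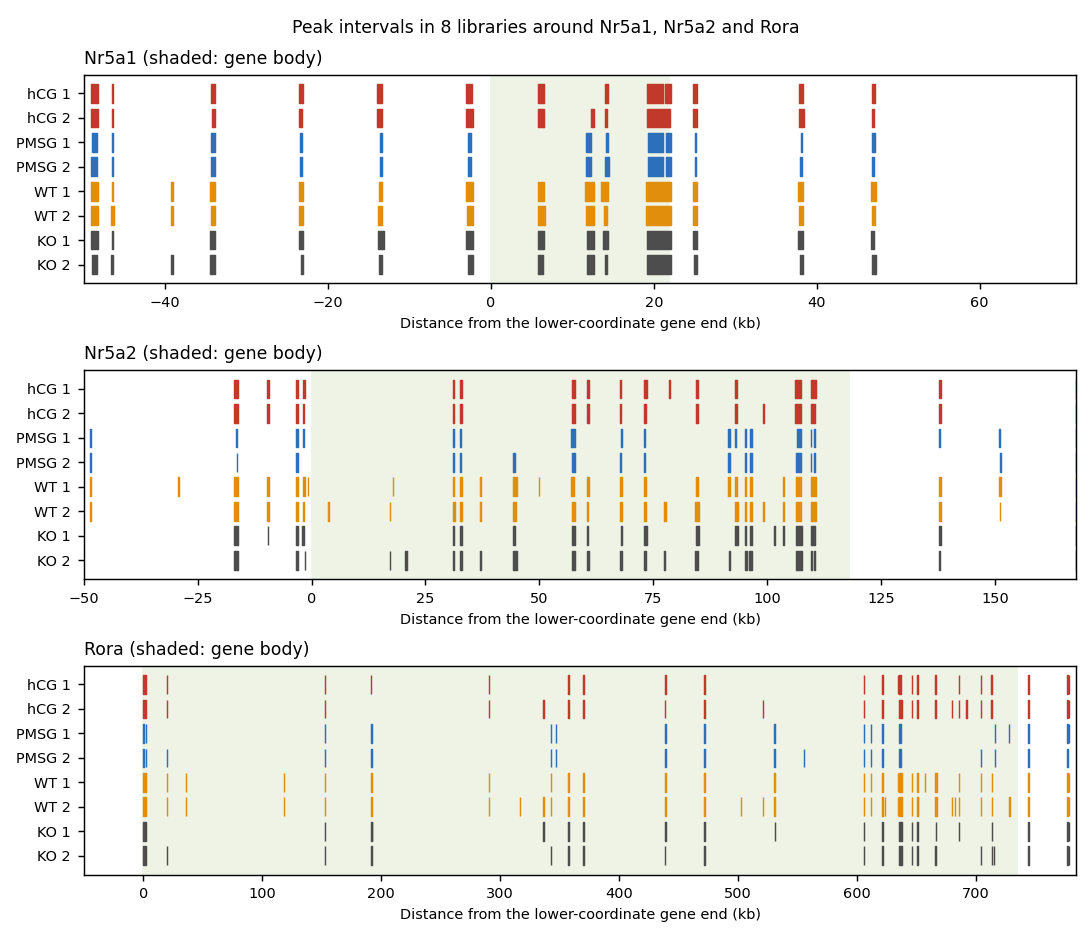
Each row is a library and each block a peak interval, placed by distance in kb from the gene's lower-coordinate end, with the gene body shaded, for Nr5a1, Nr5a2 and Rora. The Nr5a1 region 6.14 kb into the gene is present in the 6 hCG, WT and KO libraries and absent from both PMSG libraries, and the Nr5a2 regions at -48.6 and 151.1 kb appear in PMSG and WT libraries alone.

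Around Nr4a1 the hCG-only region of better rank, chr15:101312118-101312485, was 341 and 368 bp wide at the 38.6 and 37.8 percentile and was held by all 4 PR libraries. The other, chr15:101282603-101282797, ranked at the 0.235 and 0.125 percentile, close to the caller's limit. The PMSG-only regions of Nr4a1 were chr15:101228948-101229148, which lies inside the neighbouring gene Grasp, with 201 bp in both libraries, and chr15:101319054-101319488, with 316 and 435 bp. Nr4a3 had 1 PMSG-only region, chr4:48107267-48107467, 20.9 kb beyond the higher-coordinate end, with peaks of 145 and 198 bp. The Nr4a1 window also covers Acvr1b, Grasp, Atg101 and Smim41, so its peaks cannot be assigned to Nr4a1 alone.

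The Rora gene body held sites of both kinds. The best-ranked hCG-only region was chr9:69023427-69023868, with 430 and 423 bp at the 74.2 and 81.2 percentile, followed by chr9:69010823-69011237 with 253 and 378 bp. The third, chr9:69319648-69320578, was 915 and 931 bp wide. All 4 PR libraries held these 3 regions. The best-ranked PMSG-only region, chr9:69184056-69184639, was 510 and 584 bp wide at the 86.1 and 90.8 percentile, and WT 1, WT 2 and KO 1 held it. The PMSG-only region chr9:69265203-69265572, with 286 and 328 bp, was held by both WT and by neither KO library. That at chr9:69000153-69000420, with 268 and 224 bp, was held by no PR library. Rora thus held hCG-only and PMSG-only sites of high rank within the same gene, at separate places along its 735 kb.

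Across the regions held by all 4 LH libraries, 45 of the members' 67 were wider in both hCG libraries and 3 were wider in both PMSG libraries, beside 64.2% and 11.7% of all such regions. At least 2-fold wider after hCG were 8 member regions, of which 4 lay at Nr5a1, 2 at Rora and 1 each at Nr5a2 and Nr4a3, beside 5.54% of all. No member region was 2-fold wider in PMSG, beside 0.440% of all. These counts take only regions held by all 4 libraries. The Rora region chr9:68844845-68845748, just under the presence limit, was 885 and 904 bp wide in PMSG, 224 bp in hCG 1 and absent from hCG 2. It was PMSG-only when lists were cut by q-value.

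In the PR experiment the windows held 140 regions, 85 of them (60.7%) in all 4 libraries, against 53.3% of all regions. There were 10 WT-only regions (7.14%), against 12.1% of all regions, and no KO-only region, against 0.0842%. The WT lists are longer than the KO lists, and with the same number of best peaks by fold the counts were 2 WT-only (1.71%) and 8 KO-only (6.84%) of 117, where all regions gave 4.25% and 4.16%. By q-value they were 0 and 4 (3.57%) of 112, where all regions gave 2.78% and 2.50%. All 8 KO-only regions of the cut by fold had a peak in all 4 libraries in the lists as deposited. The direction of the difference between genotypes thus changed with the length of the lists. Leaving out 1 library at a time, which asks fewer libraries to meet the rule, gave 16 (without KO 2) to 23 (without WT 1) WT-only and 0 to 3 (without KO 1) KO-only regions. By gene, Rora held 5 WT-only regions of 38, Nr5a2 2 of 34, Nr4a3 2 of 7 and Nr4a1 1 of 24, and the other 4 genes held none. Cut to equal length by fold, WT-only and KO-only counts were 2 and 0 for Rora, 0 and 4 for Nr4a1, 0 and 2 for Nr5a1, 0 and 1 for both Nr4a3 and Nr2f1, and 0 for the other 3. Of the 10 WT-only calls 2 remained, both at Rora, and by q-value 0. Nr5a1 had 13 of 14 regions in all 4 PR libraries.

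The 2 WT-only regions of Nr5a2 were its flanking PMSG-only sites. At chr1:136993465-136993835 the peak spanned 371 bp in WT 1 and 187 bp in WT 2, and at chr1:136793871-136794114 it spanned 234 and 199 bp. The WT-only region of Nr4a1, chr15:101228953-101229320 (368 and 121 bp), and that of Nr4a3 at chr4:48107178-48107492 (150 and 306 bp) also coincided with PMSG-only sites. The other of Nr4a3, chr4:48031138-48031386 (249 and 117 bp), was held by no LH library. In Rora, the WT-only region chr9:68944140-68944369, with 220 and 228 bp at the 44.0 and 67.8 percentile, was held by both hCG libraries. It and chr9:68689436-68689612 (142 and 177 bp) were the calls that remained with the same number of peaks by fold. The latter and chr9:68771462-68771694 (188 and 233 bp), also in Rora, were in no LH library. Among the 85 regions held by all 4 PR libraries, 25 were wider in both WT and 4 wider in both KO libraries, beside 34.7% and 5.90% of all such regions. None was 2-fold wider in WT, beside 0.375% of all.

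The experiments were set side by side through the same sites. Of the members' 14 hCG-only regions, WT 1 held 13, WT 2 held 14, KO 1 held 12 and KO 2 held 10, where these libraries held 79.9%, 91.3%, 63.4% and 44.7% of all hCG-only regions. In all, 10 were held by all 4 PR libraries, beside 40.9% of all hCG-only regions, and 0 by none, beside 7.03%. Of the 13 PMSG-only regions, WT 1 held 11, WT 2 held 9, KO 1 held 3 and KO 2 held 4, where these libraries held 76.6%, 45.6%, 21.5% and 34.7% of all PMSG-only regions. The KO counts (23.1% and 30.8%) thus sat near the background. In all, 2 were held by all 4 PR libraries, beside 13.6%, and 2 by none, beside 19.4%. Of the 10 WT-only regions, 5 were held by both PMSG and neither hCG library, beside 10.4% of all WT-only regions with all peaks, and 1 by both hCG and neither PMSG library, beside 21.8%. None of those 5 stayed WT-only when lists were cut to equal length, by fold or by q-value, so this share holds for the lists as deposited. The experiments differ in strain and in the deposited peak names, and WT lists are longer than KO lists, so strain, processing and genotype cannot be told apart in comparisons across them.

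**Figure D4:**
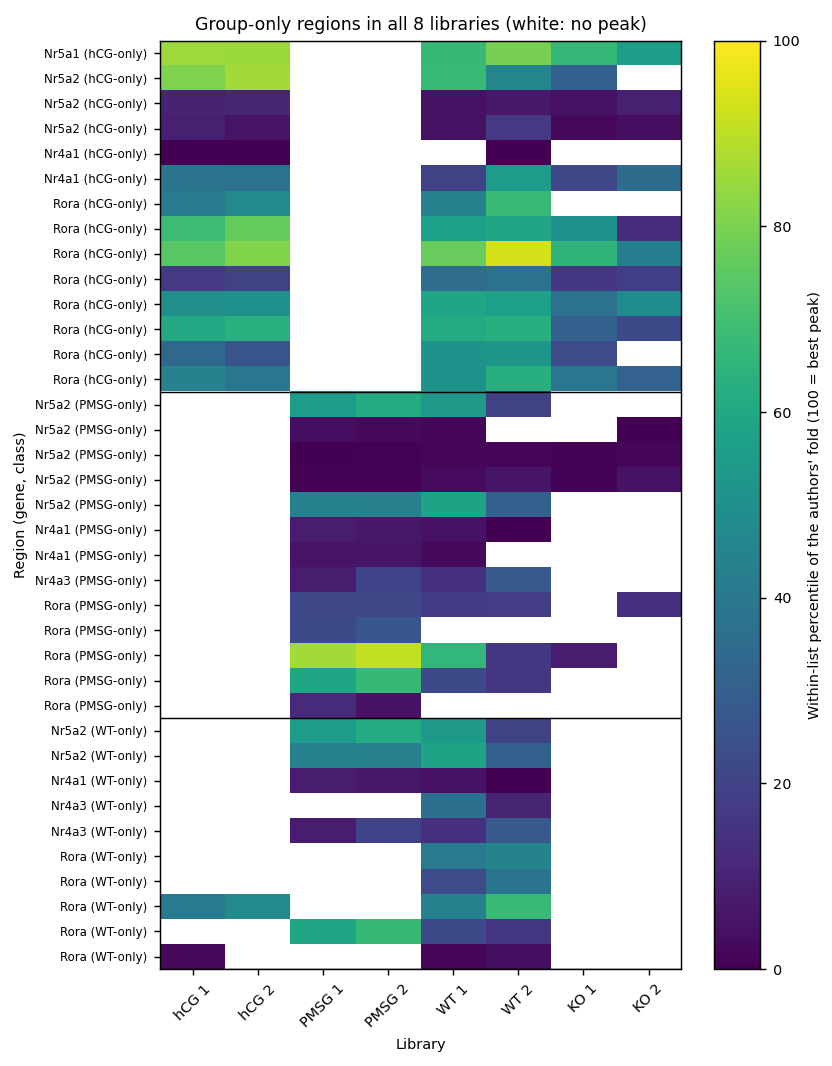
Each row is a group-only region of a member (14 hCG-only, 13 PMSG-only and 10 WT-only) and each column a library; colour gives the percentile of the authors' fold within that library's list, and white means no peak. Most hCG-only rows are filled across the WT and KO columns, while 2 of the 13 PMSG-only rows are filled in all 4.

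The amount of accessible sequence was measured as the bp of peaks in a window per Mb of all peaks of the library, which removes differences in total covered length. Nr5a2 had 239 and 222 bp per Mb after hCG and 186.0 and 186.3 in PMSG, a mean of 230.4 ± 11.7 against 186.1 ± 0.172 (SD, n = 2 each) and a ratio of 1.24. This log2 ratio of 0.31 went down to 0.10 with the same number of peaks by fold and to 0.08 in the gene body alone, and was 0.68 in covered bp as deposited and 0.44 among peaks whose -log10 q reached 20. Rora followed with 361.5 ± 19.4 against 323.0 ± 11.4, and Nr2f1 with 116.2 ± 2.42 against 104.1 ± 4.51, a ratio of 1.12 for both. Nr5a1 had 230.6 ± 6.98 against 213.7 ± 9.25, a ratio of 1.08. With the same number of peaks by fold the direction reversed for Nr5a1 (log2 ratio -0.49) and Nr2f1 (-0.06). In these 4 genes both hCG libraries lay above both PMSG libraries, where 35.0% of all genes with peaks did. Nr4a1 was higher in PMSG, with 353.3 ± 9.64 against 331.9 ± 11.6, where 39.2% of genes were, but in covered bp as deposited it was higher after hCG (log2 ratio 0.28). The other 3 overlapped, with ratios of 0.994 for Nr4a2, 0.954 for Nr4a3 and 1.02 for Nr2f2. The exact two-sided permutation test gave p = 0.333 for each gene without overlap, which is the smallest value that 2 against 2 libraries allow, so no difference of this kind could pass a threshold of 0.05.

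In the PR experiment the KO libraries were higher for Nr5a1 (274.5 ± 6.65 against 249.8 ± 7.41), Nr4a2 (126.2 ± 6.09 against 104.0 ± 6.20) and Nr2f1 (117.9 ± 8.71 against 107.2 ± 2.70), where 36.4% of genes were. In covered bp as deposited all 3 were higher in WT, by 0.18, 0.04 and 0.17 on the log2 scale. The log2 ratios of WT to KO were -0.76, -0.43 and -0.38 with the same number of peaks by fold, lower than the -0.14, -0.28 and -0.14 with all peaks. The WT libraries were higher for Rora, with 369.1 ± 1.31 against 339.9 ± 11.9, where 17.3% of genes were. The exact permutation p was again 0.333 for these 4 genes. Nr5a2, Nr4a1, Nr4a3 and Nr2f2 overlapped, with WT to KO ratios between 0.877 and 0.973, and for Nr5a2 the log2 ratio went from -0.04 to -0.69 with the same number of peaks. Peaks covered the densest share of the window at Nr4a1, between 8.55% and 12.5%, and the sparsest at Rora, between 1.13% and 1.95%.

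**Figure D5:**
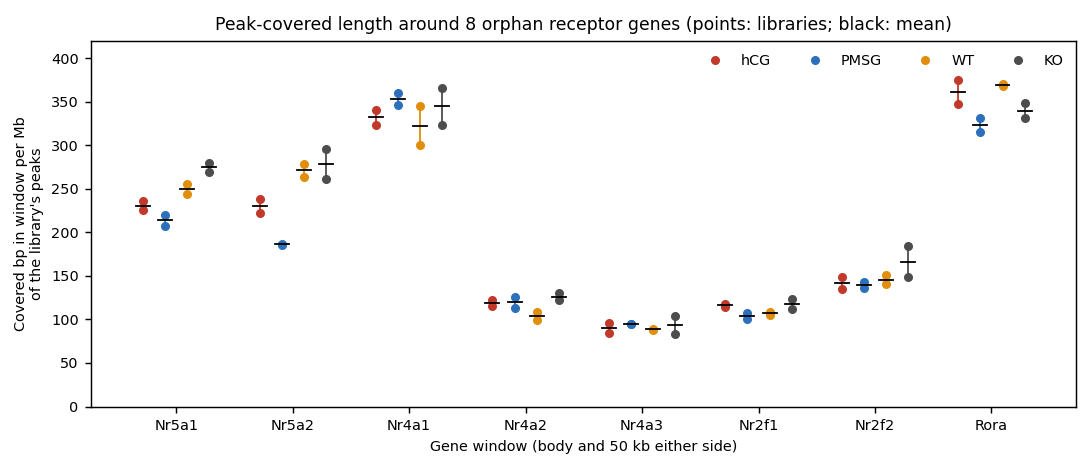
Points are libraries and black bars group means of the peak-covered bp in each gene's window per Mb of the library's peaks; vertical lines join the 2 libraries of a group. Nr5a2 sits near 186 in both PMSG libraries against 222 and 239 in the hCG libraries, and groups overlap for Nr4a3 and Nr2f2 in both experiments.

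Over the 8 libraries, the gene whose covered length per Mb most resembled that of Nr5a1 was Cyp11a1, which encodes the enzyme that starts steroid synthesis from cholesterol (Pearson r = 0.990, among 17980 genes outside the window with a peak in every library), followed by Lrrc8c (r = 0.984). Nearest to Nr5a2 were Ccn5 (r = 0.984) and Btg2 (r = 0.972). The nearest genes were Palb2 (r = 0.956) and Gm7244 (0.949) for Nr4a1, Aifm2 (r = 0.981) and Mrpl12 (0.976) for Nr4a2, and Gas1 (r = 0.945) and LOC108168367 (0.944) for Nr4a3. They were Slc2a8 (r = 0.985) and Rpl12 (0.970) for Nr2f1, Spg11 (r = 0.948) and Patl2 (0.943) for Nr2f2, and Tgoln1 (r = 0.989) and Ackr2 (0.971) for Rora. These are descriptions over 8 points that share 4 groups and the libraries' peak numbers.

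The other genes of the pathway were read from 3 lists. Among 17 other orphan receptors, 153 LH regions included 16 hCG-only (10.5%) and 12 PMSG-only (7.84%), spread over 8 and 6 genes, with 6 genes holding neither. With the same number of peaks by fold the balance turned, to 11 hCG-only (7.43%) and 19 PMSG-only (12.8%) of 148, beside 15.3% and 13.3% of all regions, so the PMSG-only share sat near the background. With all peaks, Nr6a1, the neighbour of Nr5a1, held 4 hCG-only regions of 26 and no PMSG-only region, and Nr1d1, a clock repressor that competes with Rora for its element, 3 of 21; with the same number of peaks Nr6a1 held 4 of each kind of 27, and Nr1d1 1 hCG-only and 3 PMSG-only of 18. The Nr6a1 window, with its 50 kb flank, reaches into the Nr5a1 gene. Its hCG-only counts therefore include the Nr5a1 region chr2:38698421-38699163. After the cut by fold, its PMSG-only count includes the Nr5a1 regions chr2:38704334-38705354, chr2:38706603-38707109 and chr2:38711752-38714801. These calls of a member are thus also part of the shares of this list. In the PR experiment, the KO-only calls of Nr5a1 after that cut fall in this window too. Rorb and Esrrg, an oestrogen-related receptor, held 3 PMSG-only regions each. Among 14 partners and cofactors, 190 regions included 25 hCG-only (13.2%) and 13 PMSG-only (6.84%), and 20 (11.4%) and 16 (9.09%) of 176 with the same number of peaks, both below that background. Nrip1, a corepressor needed for ovulation, and Ncoa1, a coactivator, held 4 hCG-only regions each with all peaks, and with the same number Nrip1 held 3 of each kind and Ncoa1 4 and 0. Nr0b1, a repressor of Nr5a1 activity, held 2 PMSG-only and no hCG-only region of 3. Nr0b1 and Nr0b2 stand both in this list and among the other orphan receptors, so their regions were counted in each. Among 12 target genes in steroid-producing cells, 204 regions included 49 hCG-only (24.0%) and 22 PMSG-only (10.8%). Runx2, a transcription factor of luteinising cells, held 13 hCG-only of 30, Amh 7 of 22, and Star, whose product carries cholesterol into mitochondria, 5 of 11 with no PMSG-only region. Their hCG-only and PMSG-only counts with the same number of peaks were 10 and 4 of 30 for Runx2, 2 and 3 of 17 for Amh and 3 and 0 of 9 for Star. For the targets the balance turned as well: with the same number of peaks by fold they held 32 hCG-only (16.8%) and 41 PMSG-only regions (21.5%), the first near its background of 15.3% and the second above its background of 13.3%. Set beside 17.7% and 10.4% of all regions, the targets' hCG-only share was above and the orphan receptors' below the background with all peaks. Of the targets' 49 hCG-only regions 13 lay at Runx2. The lists were chosen with earlier results of these data known, so this contrast is a description only. In the PR experiment WT-only regions numbered 11 of 178 for other orphan receptors (6.18%), 30 of 208 for partners (14.4%) and 19 of 246 for targets (7.72%), against 12.1%. With the same number of peaks by fold the balance turned for all 3 lists: WT-only and KO-only regions numbered 4 and 9 of 148 for other orphan receptors, 9 and 10 of 171 for partners and 2 and 26 of 180 for targets (1.11% and 14.4%), against 4.25% and 4.16%. With all peaks, Ncoa2 with 7 and Ncoa1 with 5 held the most WT-only regions of the partners, and with the same number Ncoa2 held none and Ncoa1 4. With all peaks, 1 KO-only region was found, at Gata4.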

How the data were processed

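The deposited data are peak lists, 1 for each library of the LH and PR experiments, with the 10 columns of the narrowPeak format and no header line. The submitters' processing notes name Bowtie2, MACS2 and the build mm10, without roles or versions. Shifting of reads for the Tn5 cut is not given in the sources used here. Per the labels' protocols, fragments were sequenced as paired reads of 150 bp. Names of PR peaks carry a prefix about filtering and marked duplicates that LH peaks lack. Column 7 of the deposited lists was read as the authors' fold enrichment, a ratio, and columns 8 and 9 as −log10 of p-values and q-values, with no −log10 q under 10. The authors' score (column 5) was left aside. All such values were ranked only within their own list.

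Summits sharing an interval were counted as 1 interval with their best fold. Chromosomes 1 to 19 and X were kept, with positions counted from 1. Regions were called as described beside the results, and covered length was tested by an exact two-sided permutation over the 6 assignments of 4 libraries. Scripts used Python 3.11.15, numpy 2.4.6, pandas 2.3.3, scipy 1.17.1 and matplotlib 3.10.9, and were tested on simulated lists. Genes and start sites came from RefSeq tables on GRCm38.p6, which give no exons, so exonic and intronic regions were not told apart. All 8 members were named. Regions named were those at start sites and, per member, experiment and direction, up to 3 group-only regions of best mean rank; the other named regions of Nr5a1, Nr5a2, Rora and Nr2f1 (wide ones, those just under the presence limit, and those near a start whose call changed with list length), and that of Nr2f2, were chosen after their values were seen, as was the comparison of widths. The members and lists were chosen with earlier results of these data known. Replicates are separate pools of mice. Alternatives were a same number of peaks, the 20000 best peaks, a 10 kb flank, the gene body alone, stricter thresholds and overlaps, and leaving out each library.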

Additional observations from a re-analysis of the deposited data

How the results depend on the processing

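The counts of group-only regions depended on how many peaks and how much flank were used. With the same number of peaks by fold, PMSG-only regions of the members went from 13 to 22, WT-only from 10 to 2 and KO-only from 0 to 8. Before this cut, the 8 KO-only regions and most of the added PMSG-only regions had a peak in all 4 libraries of their experiment. Ranked by q-value, a setting chosen after seeing the data, WT-only regions were 0 and KO-only 4. Among the 20000 best peaks of each library there were 9 hCG-only, 4 PMSG-only, 1 WT-only and 1 KO-only regions. A 10 kb flank gave 8 PMSG-only and 5 WT-only regions, and the gene body alone the same 8 and 5. Leaving out each library in turn gave 17 to 20 hCG-only, 14 to 16 PMSG-only, 16 to 23 WT-only and 0 to 3 KO-only regions; by construction only 3 libraries must then meet the rule. Of these WT-only counts, 23 came without WT replicate 1, 18 without WT replicate 2, 19 without KO replicate 1 and 16 without KO replicate 2, and KO-only counts reached 3 without KO replicate 1. The other 24 alternative values of these totals stayed within 1.5 times.

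Of the 9 covered-length ratios whose groups did not overlap, none changed sign without a library and 7 of 44 values did under the other settings, as follows. Of the 7 ratios whose groups overlapped, 15 of 35 values changed sign under those settings and 9 of 28 without a library. In bp as deposited, the log2 ratio of hCG to PMSG was 0.28 for Nr4a1, and that of WT to KO was 0.18 for Nr5a1, 0.037 for Nr4a2 and 0.17 for Nr2f1. With the same number of peaks, the hCG to PMSG ratio was -0.49 for Nr5a1 and -0.061 for Nr2f1, and within the gene body it was -0.084 for Nr5a1. The cause of these reversals was not tested. For covered length a replicate block, added after seeing the data, set libraries of the same number against each other, although nothing in the labels ties these pools of mice across groups. Its log2 ratios differed from the unpaired ones by less than the spread between replicates, with 0.31 for Nr5a2 and 0.11 for Nr5a1 in hCG to PMSG and -0.28 for Nr4a2 and -0.14 for Nr5a1 in WT to KO. Both pairs had the same sign for 5 of 8 genes in the LH and 4 of 8 in the PR experiment, with an exact sign-flip p of 0.5, the smallest that 2 pairs allow. Across 18130 and 18208 genes, the difference of replicate 1 from 2 correlated between the groups by 0.022 in the LH and -0.0071 in the PR experiment. Region calls come from no test and took no block. With 2 libraries a group and no read numbers, a peak missing from a list may lie just under the caller's limit.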
